A study of Homo sapiens with 16 samples.

Results

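HCT116 is an established human colon cancer cell line. The values here are of its wild-type cells at 48 h, set against wild-type cells at 24 h, in strand-specific libraries of polyadenylated RNA. The series holds 16 libraries in 6 groups, and the sample titles put 3 of them in wild type 48 h and 2 in wild type 24 h, so that 5 of 16 libraries make up the comparison. Beside them, 3 wild-type libraries of 96 h and 5 libraries of cells with CRISPR interference against the long noncoding RNA NORAD (3 at 48 h and 2 at 24 h) were used to see how the same genes stood elsewhere. The labels name no genotype beyond wild type or knockdown and no clone. They give doxycycline at 0.5 µg/ml, which induces the interference, as a treatment for all samples and do not say whether wild-type cells received it. Whether replicates were grown apart is not stated in the labels, and p-values therefore weigh a difference against library-to-library spread that may be technical. The libraries of each time form a set of their own, and time cannot be told apart from anything else that differed between the sets.

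The SREBP factors are released from the endoplasmic reticulum when sterols are scarce and switch on the enzymes of cholesterol and fatty acid synthesis. The hypoxia-inducible factors (HIF) are destroyed while oxygen is present and otherwise switch on glycolysis, glucose uptake and blood vessel growth factors. MYC and the E2F factors drive ribosome production and DNA replication in dividing cells, and FOXO factors are active when growth signalling is low.

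The 3 libraries of 48 h held 36610474, 40567455 and 39850165 estimated counts, against 28391784 and 28582248 in the 2 libraries of 24 h. Levels below are CPM, counts per 1e+06 counts of a library scaled by TMM, and compare a gene between libraries, not genes with each other. On the first principal component of log2 CPM over all 16 libraries, which held 33.4% of the variance, the libraries of 48 h scored 62.7, 56.3 and 66.1, against -58.8 and -55.7 at 24 h. Mitochondrially encoded mRNAs took 11.4%, 10.98% and 11.7% of the counts kept for the tests at 48 h, against 4.92% and 5.08% at 24 h. Transcripts with a run of at least 31 A or T took 5.41%, 4.82% and 4.92% of all counts at 48 h, against 0.672% and 0.617% at 24 h, and 159 of them were left out of all tests. The 35 transcripts whose longest run is 31 held 118155, 124448 and 115580 counts at 48 h, against 8260 and 8734 at 24 h. The 51 with a run of 30, which were kept, held 26160, 32476 and 29492 counts at 48 h, against 21230 and 21115 at 24 h. Shares of retained-intron transcripts in the counts kept were 4.21%, 4.39% and 4.38% at 48 h, against 5.21% and 4.96% at 24 h. The part of these differences in the results below was not tested.

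**Figure D1:**
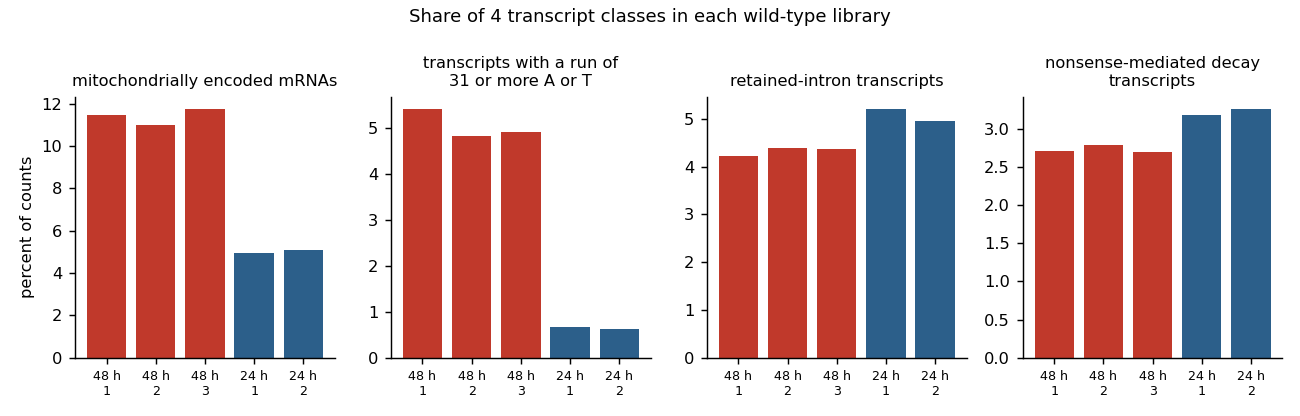
Share of counts (percent, bars from 0) taken by 4 transcript classes in each wild-type library, of all counts for transcripts with a long run and of the counts kept for the others, with the 3 libraries of 48 h left of the 2 of 24 h. The mitochondrially encoded share lies between 10.98% and 11.7% at 48 h, against 4.92% and 5.08% at 24 h, and the share of transcripts with a long run of A or T between 4.82% and 5.41%, against 0.672% and 0.617%.

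The labelled colon epithelium was checked on 12 markers. Of 11 tested, 4 rose and 3 fell (2 rose without replicate 2 of 24 h, and 1 fell without either library of 24 h or without replicate 1 of 48 h). The share rising was 36.4% and the share falling 27.3%, against 21.2% and 22.8% over all genes. By 2-fold or more, 1 rose and 1 fell. The summed level of the 11 was 6869, 7007 and 6698 CPM at 48 h, against 7963 and 7500 CPM at 24 h. Among the falls, KRT19 averaged 2026 CPM at 48 h, against 3655 CPM at 24 h (log2 fold change -0.85). Keratin 8, the main simple-epithelium keratin, had 2914, 2894 and 2841 CPM at 48 h, against 2538 and 2375 CPM at 24 h. The adhesion molecule gene EPCAM, named here for the check, had 319, 308 and 301 CPM at 48 h, against 246 and 277 CPM at 24 h. The difference of EPCAM did not pass (edgeR adjusted p = 0.0589). The transcription factor gene CDX2 had 30.5, 30.5 and 27.2 CPM at 48 h, against 18.8 and 19.5 CPM at 24 h. The differentiation markers LGALS4 and VIL1 stayed under 1 CPM in mean at both times, and CDX1 had at most 1 count in a library. Of 18 markers of blood, connective tissue, vessel, nerve and liver cells, LUM and PECAM1 had 0 counts in all 5 libraries, and PTPRC at most 8. The 13 that could be tested summed to 59.5, 61.4 and 61.7 CPM at 48 h, against 114 and 103 CPM at 24 h, COL1A1 (34.2, 35.1 and 34.3 CPM at 48 h, against 71.5 and 56.6 CPM at 24 h) and SYT1 (20.2, 20.5 and 22.4 CPM at 48 h, against 34.7 and 38.8 CPM at 24 h) among them.

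Between 24 and 48 h nearly as many genes rose as fell, and the larger changes were mostly falls. Of 19766 genes tested, 8698 passed (44.0%; edgeR's quasi-likelihood test, Benjamini-Hochberg adjusted p under 0.05), with 4182 higher (21.2%) and 4516 lower (22.8%) at 48 h. By 2-fold or more, 696 rose (3.52%) and 1980 fell (10.0%). The median log2 fold change over all genes was -0.03. In such bulk libraries, fewer cells of a kind and less RNA per cell cannot be told apart. All 3 libraries of 48 h lay above both of 24 h in 6307 genes (31.9%) and below both in 6830 (34.6%). NORAD itself (ENSG00000260032, chr20:36045622-36050960, minus strand, GRCh38), the target of the knockdown arm, had 159, 158 and 166 CPM at 48 h, against 185 and 208 CPM at 24 h in wild type. For NORAD the log2 fold change was -0.29 (SE 0.109, edgeR adjusted p = 0.0386). This call was lost with DESeq2 (adjusted p = 0.055) and when any of the 5 libraries was left out (edgeR adjusted p from 0.0577 to 0.33).

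Genes of cholesterol synthesis and uptake fell together. All 25 tested members of the list fell, 22 of them by 2-fold or more, with a median log2 fold change of -2.14, against 22.8% falling and a median of -0.03 over all genes. Every 48 h library lay below both 24 h libraries for each of the 25. INSIG1, which holds the SREBP complex in the endoplasmic reticulum and is itself an SREBP target (ENSG00000186480, chr7:155297776-155310235, plus strand), had 12.5, 11.6 and 11.4 CPM at 48 h, against 371 and 359.8 CPM at 24 h. INSIG1 had a log2 fold change of -4.95 (SE 0.140, edgeR adjusted p = 6.07e-15), the largest change of the list. MSMO1, a C4 demethylase of the sterol ring, had 29.8, 27.8 and 29.4 CPM at 48 h, against 249 and 246 CPM at 24 h. For MSMO1 the log2 fold change was -3.09 (SE 0.100, edgeR adjusted p = 3.06e-15), and its groups did not overlap. MVD, which makes isopentenyl pyrophosphate in the mevalonate pathway, had 95.4, 96.9 and 90.2 CPM at 48 h, against 619 and 542 CPM at 24 h. For MVD the log2 fold change was -2.62 (SE 0.0815, edgeR adjusted p = 1.64e-15). PMVK, with the smallest fall and named after its values were seen, had 28.96, 31.3 and 27.8 CPM at 48 h, against 38.6 and 35.8 CPM at 24 h (log2 fold change -0.34). The count was 24 without replicate 1 of 24 h, and 24 when tested against a change of 1.2-fold (glmTreat).

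Genes of fatty acid synthesis and desaturation went the same way in most cases. Of 11 tested, 8 fell, 0 rose and 3 did not pass (median -0.87), against 22.8% falling and 21.2% rising over all genes. SCD, the desaturase that makes oleic acid, had 331, 331 and 328 CPM at 48 h, against 3026 and 2991 CPM at 24 h. For SCD the log2 fold change was -3.19 (SE 0.142, edgeR adjusted p = 4.99e-12). ACSS2, which turns acetate into acetyl-CoA, had 21.6, 23.7 and 15.1 CPM at 48 h, against 216 and 194 CPM at 24 h. For ACSS2 the log2 fold change was -3.35 (SE 0.143, edgeR adjusted p = 4.77e-12). FASN, the fatty acid synthase, had 885, 950.3 and 820.4 CPM at 48 h, against 3603 and 3086 CPM at 24 h. FASN had a log2 fold change of -1.92 (SE 0.141, edgeR adjusted p = 5.51e-09). The gene of the regulator SREBP-1, SREBF1, had 162, 170.1 and 153 CPM at 48 h, against 448 and 396 CPM at 24 h (-1.38). ACLY, FADS1, ACSL3 and ELOVL6 fell by 0.87, 1.12, 0.55 and 0.47 on the log2 scale. Of 8 genes of sterol efflux and the sterol-activated LXR receptors, 4 rose, 1 fell and 3 did not pass (median 0.21). The receptor gene NR1H3 had 22.3, 25.04 and 23.3 CPM at 48 h, against 16.1 and 15.2 CPM at 24 h (0.59). The phospholipid enzyme gene LPCAT3 had 80.1, 84.9 and 79.98 CPM at 48 h, against 55.1 and 55.3 CPM at 24 h (0.56), and MYLIP, a ubiquitin ligase that LXR induces, rose by 0.49 on the log2 scale. The fourth rise, of NR1H2 (0.35), did not pass without replicate 2 of 24 h, and the fall of the efflux pump gene ABCA1, at under 0.4 CPM in each library, did not pass without replicate 1 of 24 h, replicate 2 of 24 h or replicate 2 of 48 h.

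**Figure D2:**
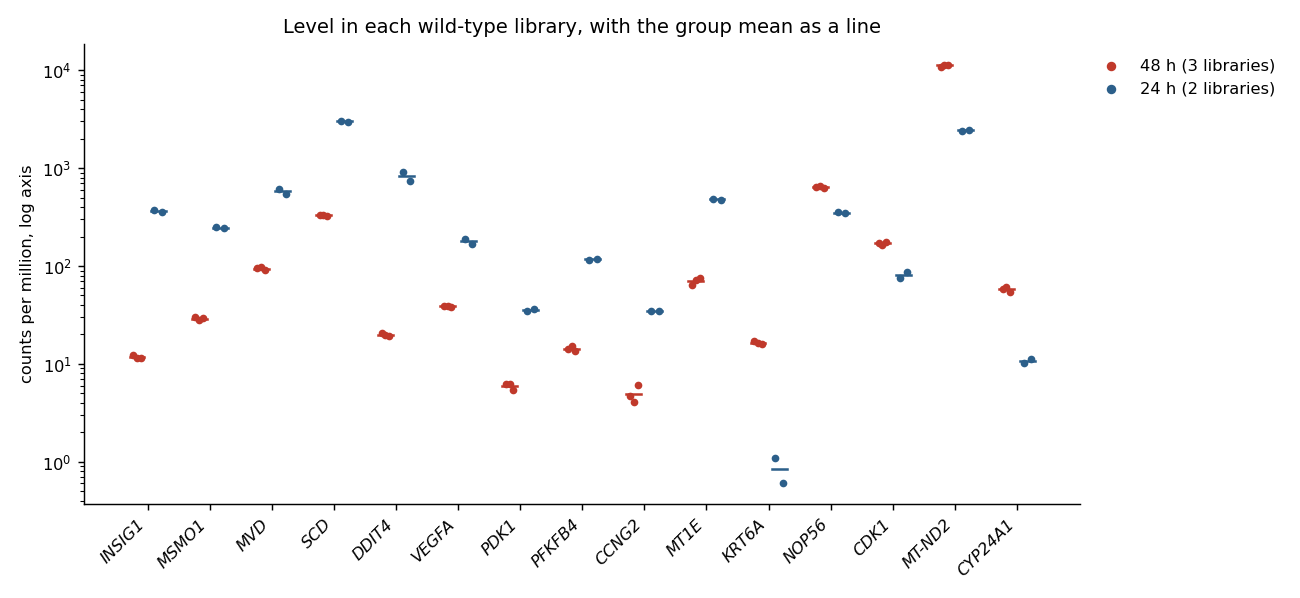
CPM (log axis) of 15 named genes in each wild-type library, with the 3 libraries of 48 h left of the 2 of 24 h for each gene and a line at each group's mean. The libraries of the 2 times do not overlap for any gene shown. INSIG1 had 12.5, 11.6 and 11.4 CPM at 48 h, against 371 and 359.8 CPM at 24 h. MT-ND2 had 10932, 11361 and 11312 CPM at 48 h, against 2386 and 2476 CPM at 24 h.

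Targets of the hypoxia-inducible factors fell too, where 22.8% of all genes fell. Of 23 tested, 22 fell, 20 of them by 2-fold or more, with a median log2 fold change of -2.15, and RORA, at under 1 CPM in mean, did not pass. DDIT4, an inhibitor of the growth kinase mTORC1 (ENSG00000168209, chr10:72273920-72276036, plus strand), had 20.8, 19.7 and 19.2 CPM at 48 h, against 917 and 739.7 CPM at 24 h. For DDIT4 the log2 fold change was -5.38 (SE 0.210, edgeR adjusted p = 2.83e-10). VEGFA, the vessel growth factor gene, had 38.7, 39.5 and 38.6 CPM at 48 h, against 189.6 and 167 CPM at 24 h. For VEGFA the log2 fold change was -2.20 (SE 0.112, edgeR adjusted p = 2.4e-12). PDK1, a kinase that inhibits pyruvate dehydrogenase, had 6.27, 6.27 and 5.38 CPM at 48 h, against 34.8 and 36.4 CPM at 24 h. PDK1 had a log2 fold change of -2.58 (SE 0.140, edgeR adjusted p = 4.44e-12), and the groups did not overlap for any of these. The histone demethylase gene KDM3A had 23.1, 21.6 and 22.3 CPM at 48 h, against 102 and 106 CPM at 24 h (-2.22). KDM4B had 28, 28.3 and 26.2 CPM at 48 h, against 119 and 119.6 CPM at 24 h (-2.12). The summed level of the 23 members was 659, 644 and 625 CPM at 48 h, against 6152 and 5670 CPM at 24 h, which includes the stress gene NDRG1 (109, 109 and 89.7 CPM at 48 h, against 2645 and 2457 CPM at 24 h). RORA and NDRG1 were named after their values were seen.

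Promoters of the hypoxia list were searched for the core letters of the HIF binding site, ACGTG, on both strands, in RefSeq promoters (GRCh38.p14, 250 bases before to 50 after a gene's start). Of 25 promoters of 20 matched members, 14 held it (56.0%), against 4428 of 18255 promoters of tested genes (24.3%) and 21.4% of all 35116. The windows of 30 bases around the match are shown for the 6 members with the largest falls that hold it and have a promoter of their own in the table, with the match in capitals (CACGT is ACGTG on the other strand):
DDIT4: agaacgttgcttACGTGcgcccggagtcca
ANGPTL4: ggaaagaagagtCACGTctcccacggttcg
ANKRD37: ggcgccgggctcCACGTgccagtgtttgtg
P4HA1: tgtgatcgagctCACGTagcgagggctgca
KDM4B: gtcagcgggCACGTgggtgggcgccggcgt
PLOD2: cgtgagcctccaCACGTagccgcaggcagc

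These windows lie at chr10:72273787-72273816, chr19:8363909-8363938, chr4:185396667-185396696, chr10:73096935-73096964 (minus strand), chr19:4968863-4968892 and chr3:146161367-146161396 (minus strand), the others on the plus strand. ANKRD37 holds 3 matches and KDM4B and PLOD2 hold 2 each, where CACGTG counts as 2 overlapping matches, and the 1 shown lies furthest upstream. The match shown begins 125 bases before the gene's start in DDIT4, 234 in ANGPTL4, 162 in ANKRD37, 86 in P4HA1, 241 in KDM4B and 200 in PLOD2. In this order the 6 genes fell by 5.38, 5.19, 4.64, 2.28, 2.12 and 1.98 on the log2 scale. ANGPTL4 blocks lipoprotein lipase, ANKRD37 is a small ankyrin repeat protein, and P4HA1 and PLOD2 hydroxylate collagen. Of these, ANGPTL4, ANKRD37, P4HA1 and PLOD2 were named through the match and the size of their fall, as SREBF2 below was through its match. A match is a description of these letters and not a bound site. In the sterol list, 18 of the 25 tested members had a promoter to search, and the others were not searched. The letters TCACNCCAC of a sterol response element stood in 1 of their 23 promoters, that of SREBF2, against 1.14% of the promoters of tested genes:
SREBF2: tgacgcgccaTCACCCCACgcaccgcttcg

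This window lies at chr22:41832962-41832991, on the plus strand, and its match begins 133 bases before the start of SREBF2. That gene encodes the SREBP that drives cholesterol synthesis and had 98.2, 102 and 96.1 CPM at 48 h, against 454 and 445 CPM at 24 h. SREBF2 had a log2 fold change of -2.19 (SE 0.113, edgeR adjusted p = 3.15e-12). 

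Glycolysis genes fell with them, where 22.8% of all genes fell. Of 21 tested genes, 19 fell, 13 by 2-fold or more, with a median of -1.46, and the phosphofructokinase genes PFKFB3 and PFKM, named after their values were seen, did not pass. The neuronal-type glucose transporter gene SLC2A3 had 1.39, 0.635 and 0.929 CPM at 48 h, against 53.4 and 50.02 CPM at 24 h. SLC2A3 had a log2 fold change of -5.73 (SE 0.309, edgeR adjusted p = 1.01e-08), with 90.3% of its counts at 24 h in a protein-coding transcript. The aldolase gene ALDOC had 22.7, 20.4 and 19.6 CPM at 48 h, against 461 and 378 CPM at 24 h. For ALDOC the log2 fold change was -4.33 (SE 0.136, edgeR adjusted p = 2.93e-14). PFKFB4, which sets the allosteric activator of phosphofructokinase, had 14.1, 15.2 and 13.7 CPM at 48 h, against 116 and 118 CPM at 24 h (-3.03). The enolase gene ENO2 had 44.3, 46.4 and 47.8 CPM at 48 h, against 345 and 315 CPM at 24 h (-2.84). The lactate exporter gene SLC16A3 had 456, 482 and 447 CPM at 48 h, against 1286 and 1299 CPM at 24 h (-1.49). Of 6 genes that respond to glucose through MondoA and ChREBP, 5 fell. The arrestin gene ARRDC4 fell furthest, with 3.34, 2.84 and 2.76 CPM at 48 h, against 8.24 and 8.99 CPM at 24 h. ARRDC4 had a log2 fold change of -1.53 (SE 0.172, edgeR adjusted p = 3.38e-07). KLF11 and the ChREBP gene MLXIPL fell by 1.41 and 1.16, and 2 of the 5 calls, that of MLXIP among them, did not pass without replicate 1 of 24 h.

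Most genes of slow growth and cell cycle exit were lower at 48 h, and so were most immediate early genes, which are a separate list. Of all genes tested, 22.8% fell and 21.2% rose. In the list of cell cycle inhibitors and FOXO or quiescence genes, 17 of 22 tested fell, 12 by 2-fold or more, 1 rose and 4 did not pass (median -1.13). CCNG2, an atypical cyclin of resting cells, had 4.73, 4.11 and 6.02 CPM at 48 h, against 34.6 and 35.1 CPM at 24 h. For CCNG2 the log2 fold change was -2.81 (SE 0.147, edgeR adjusted p = 5.05e-12). CDKN1C, the inhibitor p57 of cyclin-dependent kinases, had 9.396, 9.44 and 8.98 CPM at 48 h, against 98.1 and 73.4 CPM at 24 h. CDKN1C had a log2 fold change of -3.21 (SE 0.161, edgeR adjusted p = 8.84e-11). PDCD4, an inhibitor of translation, had 11.7, 12.5 and 12.1 CPM at 48 h, against 31.5 and 33.1 CPM at 24 h (-1.42). YPEL5 had 11.03, 10.8 and 11.1 CPM at 48 h, against 34.9 and 32.4 CPM at 24 h (-1.61). The single rise, of RBL2 (0.34), did not pass without replicate 1 of 24 h or replicate 2 of 48 h and was named after its value was seen. Of 21 immediate early genes, 13 fell and 3 rose (median -0.65; 1 rose without replicate 2 of 24 h). The AP-1 gene JUND had 102, 109 and 106 CPM at 48 h, against 356 and 329 CPM at 24 h (-1.70). JUN had 24.3, 25.4 and 22.5 CPM at 48 h, against 59.6 and 55.99 CPM at 24 h (-1.26). The orphan receptor gene NR4A1 had 42.99, 49.9 and 41.6 CPM at 48 h, against 180.4 and 131 CPM at 24 h (-1.79).

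Genes of growth rose, by less per gene. Of 26 ribosome biogenesis and MYC target genes, 23 rose, 0 fell and 3 did not pass, with a median of 0.69, against 21.2% rising over all genes. NOP56, a core protein of the box C/D snoRNPs that modify ribosomal RNA, had 645, 663 and 633 CPM at 48 h, against 358 and 346 CPM at 24 h. For NOP56 the log2 fold change was 0.88 (SE 0.0811, edgeR adjusted p = 1.88e-08). BYSL, which matures the small subunit, had 124, 116 and 115 CPM at 48 h, against 58.3 and 59.6 CPM at 24 h. The rRNA methyltransferase gene NOP2 had 215, 217 and 207 CPM at 48 h, against 117 and 116 CPM at 24 h (0.87). POLR1C, shared by RNA polymerases I and III, had 93.3, 95.7 and 92.2 CPM at 48 h, against 50.9 and 53.3 CPM at 24 h (0.85). Each of these 4 genes had its lowest 48 h library above both of 24 h. The cytosolic ribosomal protein genes went the other way. Of 77 tested, 37 fell, 0 rose and 40 did not pass (median -0.24), against 22.8% falling over all genes. RPL12 had 1047, 1005 and 1079 CPM at 48 h, against 1756 and 1710.1 CPM at 24 h. For RPL12 the log2 fold change was -0.73 (SE 0.0909, edgeR adjusted p = 1.2e-06). RPL10 and RPL3 had log2 fold changes of -0.67 and -0.60. The count of falls was 15 without replicate 1 of 24 h, 24 under abundance-dependent scaling and 59 in a fit of the 5 libraries alone, and kallisto divides reads between these genes and their many pseudogenes by a model.

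DNA replication and mitosis genes rose together, where 21.2% of all genes rose and 22.8% fell. Of 41 replication and G1/S genes, 34 rose and 7 did not pass (median 0.57), and of 42 mitosis genes, 33 rose, 1 fell and 8 did not pass (median 0.46). CDC45 and the GINS subunits, which with the MCM ring form the replicative helicase, had the lowest p-values of the replication list. CDC45 had 74.6, 75.3 and 70.8 CPM at 48 h, against 38.8 and 42.4 CPM at 24 h. For CDC45 the log2 fold change was 0.86 (SE 0.0916, edgeR adjusted p = 1.51e-07). GINS3, GINS4 and GINS2 had log2 fold changes of 0.91, 0.84 and 0.71. CDK1, the kinase that starts mitosis (ENSG00000170312, chr10:60778331-60794852, plus strand), had 172, 163 and 178 CPM at 48 h, against 75.3 and 86.4 CPM at 24 h. CDK1 had a log2 fold change of 1.08 (SE 0.109, edgeR adjusted p = 7.25e-08). AURKB, the kinase of the chromosomal passenger complex, had 169.8, 166 and 155 CPM at 48 h, against 94.9 and 95.96 CPM at 24 h (0.78). The topoisomerase gene TOP2A had 227, 223 and 256 CPM at 48 h, against 127 and 132 CPM at 24 h (0.87). CDCA3 had 96.6, 95.1 and 88.03 CPM at 48 h, against 56.5 and 55.2 CPM at 24 h (0.74). The single fall was of the phosphatase gene CDC25B (-0.43). The proliferation marker MKI67 had 529, 578 and 566 CPM at 48 h, against 486 and 489 CPM at 24 h, which did not pass. For MKI67 the log2 fold change was 0.19 (SE 0.101, edgeR adjusted p = 0.129). CDC25B and MKI67 were named after their values were seen. Of 32 tested histone genes of the replication-dependent class, whose mRNAs lack a poly(A) tail as a rule, 16 fell and 1 rose (0 without replicate 2 of 24 h). The falls were 5 without replicate 1 of 24 h and 10 without replicate 3 of 48 h, and HIST2H2BE had 2.32, 3.23 and 2.76 CPM at 48 h, against 21.7 and 12.96 CPM at 24 h.

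Heat shock and proteasome genes rose more often than they fell, and metallothionein and lysosome genes fell more often. Shares over all genes were 21.2% rising and 22.8% falling. Of 17 heat shock genes, 10 rose and 2 fell (median 0.57; 1 fell without either library of 24 h or without replicate 3 of 48 h). The constitutive HSP70 gene HSPA8 had 2734, 2675 and 2900.2 CPM at 48 h, against 1421 and 1453 CPM at 24 h. For HSPA8 the log2 fold change was 0.95 (SE 0.105, edgeR adjusted p = 2.62e-07). Its co-chaperone gene DNAJA1 had 211, 186 and 212 CPM at 48 h, against 98.8 and 107 CPM at 24 h (0.98). DNAJB1 had 301, 303 and 294 CPM at 48 h, against 168 and 172 CPM at 24 h (0.82). Of 36 proteasome subunit genes, 22 rose and 0 fell (median 0.29; 13 rose without replicate 1 of 24 h), among them the core subunit gene PSMA5 (0.67). The share of proteasome genes rising was 61.1%, against 21.2% over all genes. When tested against a change of 1.2-fold (glmTreat), 5 of the 36 rose. Metallothioneins and the zinc exporter gene, which answer to zinc through MTF1, fell in 5 of 5 tested cases (median -1.64). MT1E had 64.6, 72.1 and 76.3 CPM at 48 h, against 485 and 477 CPM at 24 h. MT1E had a log2 fold change of -2.76 (SE 0.105, edgeR adjusted p = 2.8e-14). MT2A had 264, 280.1 and 255 CPM at 48 h, against 826 and 834 CPM at 24 h (-1.64). MT1X and MT1F fell by 1.84 and 1.33, and SLC30A1 fell by 0.74 on the log2 scale. The metallothionein genes are near-identical, so counts may be divided among them. Of 26 lysosome and autophagy genes, 15 fell and 4 rose (median -0.42). The cholesterol exporter gene NPC1 had 39.6, 40.7 and 39.2 CPM at 48 h, against 108 and 110.2 CPM at 24 h (-1.45). GABARAPL1, which coats autophagosomes, had 31.7, 31.4 and 30.7 CPM at 48 h, against 69.9 and 66.1 CPM at 24 h (-1.12).

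The mitochondrion's own mRNAs rose, unequally. All 13 passed as higher, 8 of them by 2-fold or more, with a median of 1.03. The complex I subunit gene MT-ND2 had 10932, 11361 and 11312 CPM at 48 h, against 2386 and 2476 CPM at 24 h. MT-ND2 had a log2 fold change of 2.20 (SE 0.107, edgeR adjusted p = 8.64e-13). MT-ND3, MT-CYB and MT-ND1 rose by 2.24, 1.98 and 1.82 on the log2 scale. MT-CO1, of cytochrome oxidase, had 18310.4, 16837 and 17273 CPM at 48 h, against 8483 and 8924 CPM at 24 h (1.01). MT-ND4 and MT-ND5 rose by 0.81 and 0.58, and MT-ND4L (0.60) did not pass without replicate 1 of 24 h. MT-ND6, the single member read from the light strand, had 1541, 1451 and 1735 CPM at 48 h, against 962 and 888 CPM at 24 h (0.77). Nuclear genes of the respiratory chain showed no common direction. Of 79 tested, 12 rose (15.2%) and 17 fell (21.5%; median -0.00), no more than the 21.2% and 22.8% over all genes, with 10 falls without replicate 1 of 24 h, and 6 rises and 9 falls without replicate 2. The lowest p-values were of falls, of the complex I genes NDUFS1 (-0.98), NDUFA7 (-0.82) and NDUFA10 (-0.70) and of ATP5MC2 (-0.75), a subunit of the ATP synthase. Of 76 mitochondrial ribosomal protein genes, 53 rose and 1 fell (median 0.38; 0 fell without replicate 1 of 24 h, and 2 without replicate 1 or 2 of 48 h). MRPL50 had 45.3, 39.4 and 48.5 CPM at 48 h, against 20.3 and 19.8 CPM at 24 h (1.15).

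**Figure D3:**
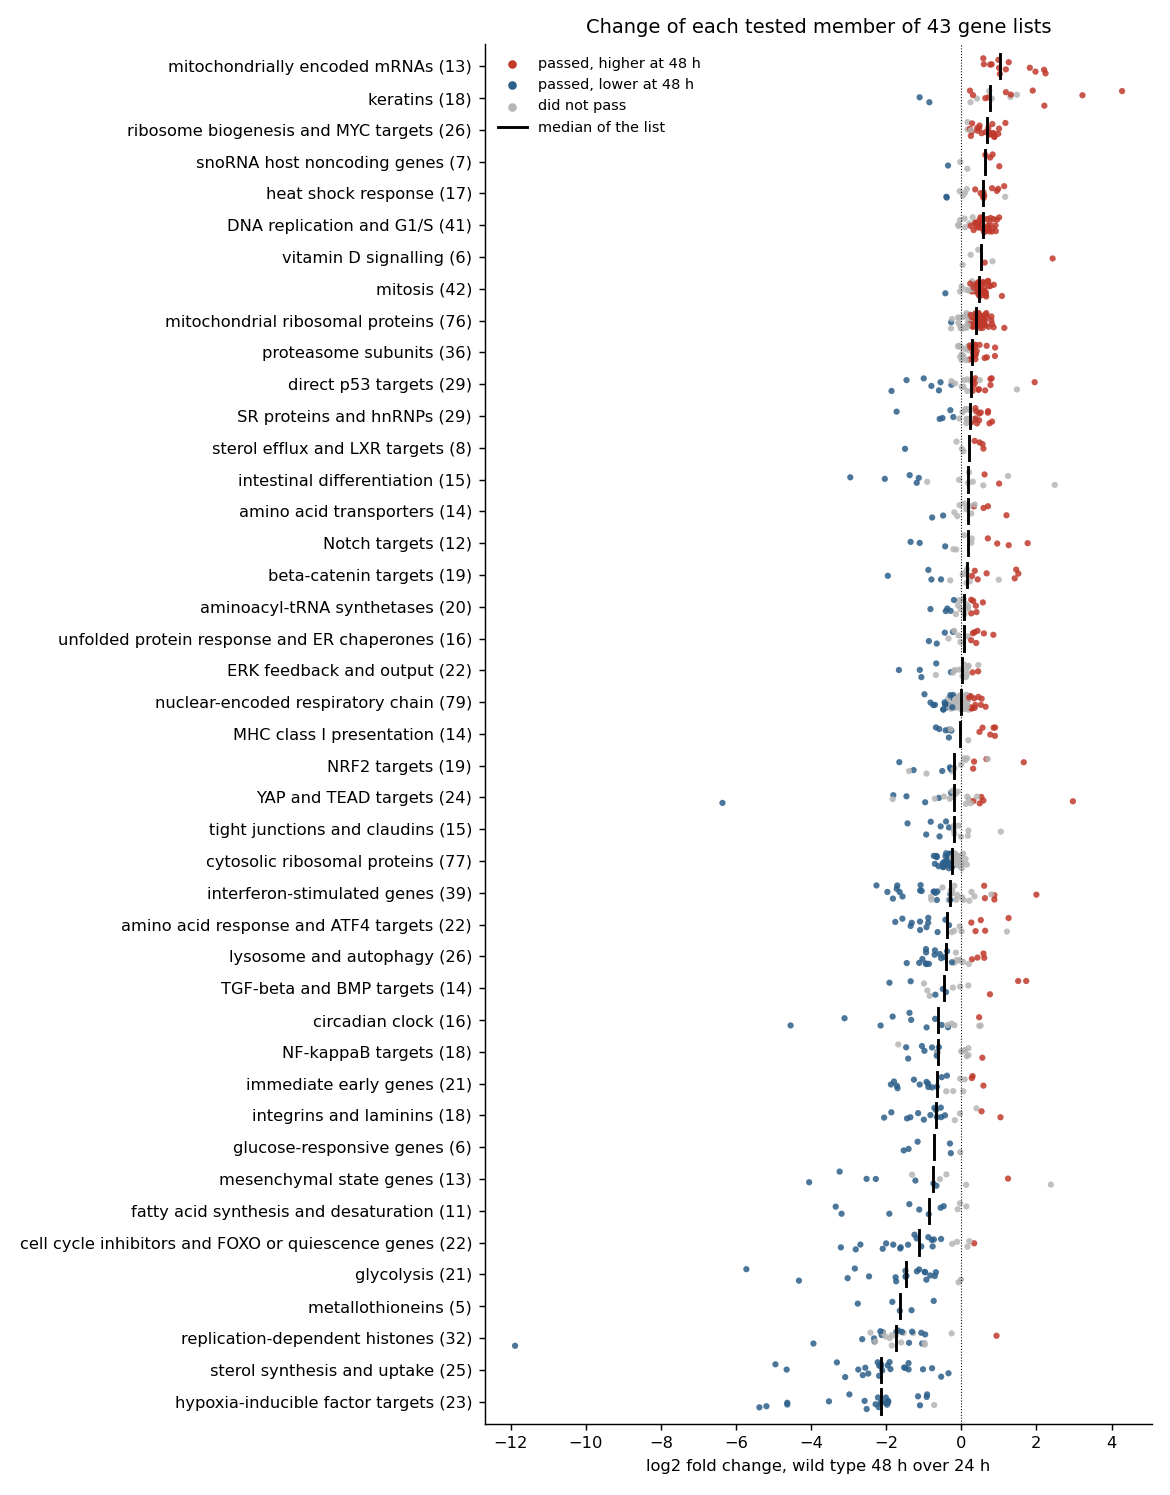
Log2 fold change (48 h over 24 h, wild type) of each tested member of 43 gene lists, ordered by the list's median, with the number tested in brackets. Red and blue points passed as higher and lower at 48 h, grey points did not pass, and the black tick is the median: it lies at -2.15 for the hypoxia list, -2.14 for the sterol list and 1.03 for the mitochondrially encoded mRNAs.

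Clock genes, which oscillate daily and also answer to serum and glucocorticoids, were lower in 10 of 16 cases and higher in 1 (median -0.61). Among all genes, 22.8% fell and 21.2% rose. The repressor gene BHLHE40, also a HIF target, had 22.8, 24.2 and 21.4 CPM at 48 h, against 552 and 515 CPM at 24 h. For BHLHE40 the log2 fold change was -4.55 (SE 0.159, edgeR adjusted p = 1.76e-12). PER1 had 41.8, 48.5 and 43.3 CPM at 48 h, against 456 and 314 CPM at 24 h. PER1 had a log2 fold change of -3.11 (SE 0.186, edgeR adjusted p = 1.55e-08). The output factor gene DBP had 14.6, 17.8 and 16.7 CPM at 48 h, against 82.4 and 63.2 CPM at 24 h (-2.15). The nuclear receptor gene NR1D1 had 40.9, 48.9 and 45.3 CPM at 48 h, against 182 and 138 CPM at 24 h (-1.83). The 24 h libraries differed from each other in several of these genes, with PER1 at 456 in replicate 1 against 314 CPM in replicate 2, but both lay above all of 48 h. The rise, of CRY1 (0.47), did not pass without replicate 1 of 24 h.

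Signalling targets split within each list, with several shares near those of all genes (21.2% rising and 22.8% falling). Of ERK output genes 9.09% rose and 22.7% fell, and of YAP and TEAD targets 20.8% rose and 25.0% fell. Of beta-catenin targets 36.8% rose and 21.1% fell. For TGF-beta and BMP targets the shares were 21.4% and 35.7%, and for Notch genes 33.3% and 25.0%. Among 19 beta-catenin targets, 7 rose and 4 fell. SOX4 had 322, 322 and 350.1 CPM at 48 h, against 114 and 117 CPM at 24 h. SOX4 had a log2 fold change of 1.52 (SE 0.101, edgeR adjusted p = 1.13e-10). The secreted WNT inhibitor gene DKK1 had 978, 921 and 959 CPM at 48 h, against 327 and 365 CPM at 24 h. DKK1 had a log2 fold change of 1.46 (SE 0.104, edgeR adjusted p = 3.43e-10). BMP4 had 54.3, 57.2 and 54.9 CPM at 48 h, against 18.9 and 22.6 CPM at 24 h (1.42). The ephrin receptor gene EPHB2 had 20.03, 21.3 and 21.95 CPM at 48 h, against 39.9 and 37.7 CPM at 24 h (-0.88). Among 14 TGF-beta and BMP targets, 3 rose and 5 fell. ID3, an inhibitor of differentiation factors, had 159, 176 and 165 CPM at 48 h, against 51.5 and 49.04 CPM at 24 h. For ID3 the log2 fold change was 1.73 (SE 0.105, edgeR adjusted p = 2.84e-11). Among 12 Notch genes, 4 rose and 3 fell. The effector gene HES1 had 35.1, 33.2 and 30.9 CPM at 48 h, against 11.4 and 8.01 CPM at 24 h. HES1 had a log2 fold change of 1.77 (SE 0.136, edgeR adjusted p = 1.25e-09). The ligand gene JAG1 had 40.98, 45.6 and 41.1 CPM at 48 h, against 17.7 and 17.8 CPM at 24 h (1.26), while HES4 and the receptor gene NOTCH3 fell by 1.11 and 1.35. Among 22 genes of ERK output, 5 fell and 2 rose. The feedback inhibitor gene SPRY4 had 66.3, 74.1 and 68.6 CPM at 48 h, against 147 and 154 CPM at 24 h (-1.11). The phosphatase gene DUSP5 had 113, 110.1 and 119 CPM at 48 h, against 258 and 219 CPM at 24 h (-1.06). The rises were 1 without either library of 24 h. Among 24 YAP and TEAD targets, 6 fell and 5 rose (3 without replicate 1 of 24 h or replicate 2 of 48 h). The largest fall there, of the receptor kinase gene AXL (0.0309, 0.0276 and 0 CPM at 48 h, against 1.67 and 2.04 CPM at 24 h), was not found with all matched transcripts kept, where its log2 fold change was 0.28 (edgeR adjusted p = 0.102).

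Of 29 direct p53 targets, 12 rose (41.4%) and 7 fell (24.1%; median 0.26), against 21.2% and 22.8% over all genes. By 2-fold or more, 1 rose and 3 fell. The members given here had the lowest p-values of the list, and most of them fell, unlike the list as a whole. BBC3, the apoptosis inducer PUMA, had 13.8, 15.2 and 14.3 CPM at 48 h, against 56.1 and 48.4 CPM at 24 h. BBC3 had a log2 fold change of -1.86 (SE 0.0946, edgeR adjusted p = 1.64e-12). TP53INP1 had 4.67, 5.301 and 4.47 CPM at 48 h, against 12.5 and 13.98 CPM at 24 h (-1.46). The growth arrest gene GADD45A had 47.9, 50.4 and 44.4 CPM at 48 h, against 101 and 89.9 CPM at 24 h. AEN, a nuclease of apoptosis, had 106, 101 and 96.8 CPM at 48 h, against 59.9 and 58.4 CPM at 24 h (0.78).

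Epithelial structure genes changed by type, against 21.2% rising and 22.8% falling over all genes. Of 18 keratin genes, 10 rose and 2 fell (median 0.78; 6 rose without replicate 2 of 24 h). KRT6A, a keratin of stratified and wounded epithelium (ENSG00000205420, chr12:52487174-52493257, minus strand), had 17.3, 16.3 and 15.9 CPM at 48 h, against 1.09 and 0.604 CPM at 24 h. For KRT6A the log2 fold change was 4.28 (SE 0.296, edgeR adjusted p = 2.84e-10). KRT80 had 9.396, 9.72 and 10.5 CPM at 48 h, against 0.933 and 1.17 CPM at 24 h (3.23). KRT13 had 16.04, 16.7 and 13.5 CPM at 48 h, against 4.32 and 3.93 CPM at 24 h (1.90). The colonocyte keratin gene KRT20 had 7.48, 5.96 and 7.65 CPM at 48 h, against 2.49 and 3.14 CPM at 24 h (1.32). The abundant KRT19 fell, with 2029, 2059.97 and 1988 CPM at 48 h, against 3779 and 3531 CPM at 24 h. For KRT19 the log2 fold change was -0.85 (SE 0.0919, edgeR adjusted p = 1.74e-07), and KRT15 also fell (-1.11). The near-identical keratin genes can share reads. Of 15 tight junction and claudin genes, 7 fell and 0 rose (median -0.20). CLDN4 had 216, 217 and 202 CPM at 48 h, against 406 and 402 CPM at 24 h (-0.94). TJP3 had 16.1, 16.5 and 16.4 CPM at 48 h, against 47.2 and 41.1 CPM at 24 h (-1.43). Of 18 integrin and laminin genes, 13 fell and 2 rose (median -0.66). LAMB3, a subunit of laminin-332, had 19.5, 20.2 and 18.6 CPM at 48 h, against 84.3 and 77.6 CPM at 24 h. For LAMB3 the log2 fold change was -2.06 (SE 0.111, edgeR adjusted p = 4.42e-12). ITGB4, the gene of a receptor subunit for that laminin, had 160.2, 163 and 139 CPM at 48 h, against 445 and 395 CPM at 24 h (-1.45). Of 13 mesenchymal genes, 7 fell and 1 rose (4 fell when genes under a mean of 1 CPM were left out). LOXL2, which crosslinks collagen, had 13.2, 13.4 and 12.9 CPM at 48 h, against 127 and 121 CPM at 24 h. For LOXL2 the log2 fold change was -3.24 (SE 0.150, edgeR adjusted p = 1.73e-11). S100A4 had 19.7, 16.1 and 23.2 CPM at 48 h, against 7.93 and 8.65 CPM at 24 h (1.24). In the intestinal differentiation list, 5 of 15 tested fell (33.3%) and 2 rose (13.3%; 4 rose without replicate 1 of 48 h, and 1 without replicate 1 of 24 h). The peptidase gene DPP4 had 2.13, 2.02 and 1.89 CPM at 48 h, against 7.35 and 9.18 CPM at 24 h (-2.04). The factor gene HNF4A had 5.96, 6.46 and 6.81 CPM at 48 h, against 16.3 and 17.1 CPM at 24 h (-1.38).

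Stress and immune genes were mixed, against 21.2% rising and 22.8% falling over all genes. Of 22 amino acid response and ATF4 targets, 12 fell and 5 rose (3 without replicate 2 of 24 h). The secreted GDF15 had 67.6, 69.8 and 66.6 CPM at 48 h, against 241 and 219 CPM at 24 h. For GDF15 the log2 fold change was -1.76 (SE 0.120, edgeR adjusted p = 5.46e-10). The pseudokinase gene TRIB3 had 53.8, 52.9 and 50.8 CPM at 48 h, against 100 and 93.3 CPM at 24 h (-0.88). Of 16 unfolded protein response genes, 7 rose and 4 fell (2 without replicate 1 of 24 h). The co-chaperone gene DNAJB11 had 144, 139.9 and 137 CPM at 48 h, against 73.5 and 81.9 CPM at 24 h (0.85). XBP1 had 68.8, 68.4 and 67.2 CPM at 48 h, against 43.2 and 46.6 CPM at 24 h (0.60). Of 39 interferon-stimulated genes, 17 fell and 5 rose (3 without replicate 1 of 24 h; median -0.31). The exonuclease gene ISG20 had 6.71, 6.57 and 6.05 CPM at 48 h, against 31.9 and 29.8 CPM at 24 h. For ISG20 the log2 fold change was -2.26 (SE 0.111, edgeR adjusted p = 1.04e-12). The master factor gene IRF7 had 16.4, 15.2 and 14.4 CPM at 48 h, against 61.9 and 46.7 CPM at 24 h (-1.82). Of 14 genes of MHC class I presentation, 6 rose and 6 fell (3 without replicate 1 of 24 h). The peptide transporter gene TAP2 had 87.99, 86.8 and 97.2 CPM at 48 h, against 47.7 and 52.3 CPM at 24 h (0.86). The immunoproteasome gene PSMB10 had 47.04, 52.7 and 47.9 CPM at 48 h, against 25.9 and 27.05 CPM at 24 h (0.89). HLA-E had 147, 142 and 132 CPM at 48 h, against 217 and 204 CPM at 24 h (-0.59). Of 18 NF-kappaB targets, 8 fell (5 without replicate 1 of 24 h) and 1 rose. NFKB2 had 122, 129 and 116 CPM at 48 h, against 264 and 219 CPM at 24 h (-0.98). Of 19 targets of the antioxidant factor NRF2, 5 fell (26.3%; 3 without replicate 1 of 24 h) and 4 rose (21.1%), near the shares of all genes. The haem oxygenase gene HMOX1 had 52.1, 54.6 and 49.1 CPM at 48 h, against 124 and 126 CPM at 24 h (-1.27). The transporter gene ABCC2 had 83.2, 81.7 and 83.4 CPM at 48 h, against 26.2 and 26.1 CPM at 24 h. For ABCC2 the log2 fold change was 1.66 (SE 0.0989, edgeR adjusted p = 1.97e-11). 

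Of 6 vitamin D genes, 2 passed, both higher. Shares over all genes, to be set beside the counts here, were 21.2% rising and 22.8% falling. CYP24A1, the hydroxylase that inactivates vitamin D and the classic target of its receptor, had 58.8, 60.6 and 54.5 CPM at 48 h, against 10.2 and 11.3 CPM at 24 h. For CYP24A1 the log2 fold change was 2.43 (SE 0.109, edgeR adjusted p = 2.68e-13). The receptor gene VDR had 29.5, 27.6 and 23.7 CPM at 48 h, against 16.5 and 18.5 CPM at 24 h (0.62). With transcripts holding a run of 20 or more A or T also left out, VDR did not pass. Of 14 amino acid transporter genes, 4 rose and 2 fell (1 fell without either library of 24 h, or without replicate 2 or 3 of 48 h). SLC7A6 had 61.4, 62.1 and 61.9 CPM at 48 h, against 25.9 and 27.7 CPM at 24 h. Of 20 aminoacyl-tRNA synthetase genes, 6 rose and 5 fell, not far from the shares of all genes. AARS had 110.2, 109 and 105 CPM at 48 h, against 201 and 182 CPM at 24 h (-0.82). FARSA had 211, 225 and 208 CPM at 48 h, against 144 and 144 CPM at 24 h (0.57). The rises were 3 without replicate 1 of 24 h, and the falls 3 without replicate 2 of 24 h, replicate 1 of 48 h or replicate 2 of 48 h. Of 29 SR protein and hnRNP genes, 13 rose and 5 fell (2 without replicate 2 of 24 h). The splicing factor gene SRSF10 had 68.8, 66.5 and 66.2 CPM at 48 h, against 34.4 and 41.7 CPM at 24 h (0.82). Of 7 noncoding genes that host snoRNAs, 4 rose and ZFAS1 (-0.35) fell, a call lost without either library of 24 h or without replicate 1 or 2 of 48 h. SNHG15 had 65.3, 66.6 and 62.6 CPM at 48 h, against 32.4 and 31.9 CPM at 24 h (1.01). Of 8 genes of NORAD, Pumilio and the complex named in the series, PRPF19, CDC5L and RBMX rose by 0.62, 0.38 and 0.37, and the fall of NORAD is given above.

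The largest single changes were often carried by 1 transcript of a gene and differed between replicates. Among rises, CLDN11 had 27.2, 31.9 and 26.1 CPM at 48 h, against 0.233 and 0.189 CPM at 24 h (log2 fold change 7.05). It had 99.6% of its counts at 48 h in a noncoding transcript that holds a run of 30 A or T. SLC25A48 and DPP6 had 87.5% and 99.3% of theirs in transcripts with runs of 30 and 28, and EYA1 99.0% in 1 with a run of 25. With transcripts holding a run of 20 or more also left out, DPP6 stood at -0.40 and SLC25A48 at 0.78, and neither passed (edgeR adjusted p = 0.632 and 0.142), while CLDN11 and EYA1 were no longer tested. Of the 15 largest rises, 11 kept their call there, among them those of the teneurin gene TENM3 (9.27, 9.39 and 9.93 CPM at 48 h, against 0.0389 and 0.189 CPM at 24 h; 6.34 in that setting), of the adhesion receptor gene ADGRF1 (74.3, 80.4 and 69.1 CPM at 48 h, against 9.33 and 8.31 CPM at 24 h; 3.09) and of KRT6A (4.29). PKNOX2 had 72.9, 83.7 and 47.4 CPM at 48 h, against 2.29 and 1.59 CPM at 24 h, 99.99% of it at 48 h in a retained-intron transcript. The ion channel gene ZACN had 38.1, 27.2 and 43.6 CPM at 48 h, against 0.233 and 0.453 CPM at 24 h, 97.3% of it at 48 h in such a transcript. AC005523.2, the largest rise among noncoding genes, had 12.6, 2.32 and 12.7 CPM at 48 h, against 0 and 0 CPM at 24 h. Its mean at 48 h was at least 159.8-fold higher, with 3 counts taken as the floor of the 24 h group, and replicate 2 lay well below that mean. It did not pass without either library of 24 h or without replicate 1 or 3 of 48 h. AC006064.4, AC011511.4, NPIPB13 and the nuclear pore gene NDC1 rose by 6.68, 3.86, 2.76 and 2.64. NPIPB13 belongs to a family of near-identical copies.

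Among falls, 3 genes had no count in any library of 48 h. The snRNA copy RNU2-4P had 0, 0 and 0 CPM at 48 h, against 171 and 63.4 CPM at 24 h. MARCH11 had 0, 0 and 0 CPM at 48 h, against 74.03 and 40.4 CPM at 24 h. The histone gene HIST1H2BK had 0, 0 and 0 CPM at 48 h, against 14.8 and 10.8 CPM at 24 h. In this order their means at 24 h were at least 4059-fold, 1985-fold and 444-fold above 48 h, with 3 counts summed over the 48 h libraries taken as the floor. The cytokine gene IL32 had 0.340, 0.331 and 0.281 CPM at 48 h, against 775 and 276 CPM at 24 h, with 99.9% of its counts at 24 h in 1 of 34 transcripts. WEE2-AS1 had 0.927, 0.690 and 0.563 CPM at 48 h, against 403 and 177 CPM at 24 h, with 99.3% at 24 h in a retained-intron transcript. The nuclear receptor gene NR5A1 had 0.247, 0.166 and 0.394 CPM at 48 h, against 194 and 116 CPM at 24 h. For NR5A1 the log2 fold change was -9.15 (SE 0.260, edgeR adjusted p = 3.61e-13). The repressor gene HIC1 had 0.371, 0.304 and 0.0563 CPM at 48 h, against 112 and 53.6 CPM at 24 h. FEZF2 had 0.0618, 0.0276 and 0.0563 CPM at 48 h, against 33.5 and 14.9 CPM at 24 h. In these genes 24 h replicate 1 was above replicate 2, and both were above the libraries of 48 h. AC005884.2 had 0.865, 1.96 and 0.985 CPM at 48 h, against 161 and 174 CPM at 24 h. AC008738.5 had 0.155, 0 and 0 CPM at 48 h, against 74.6 and 32.8 CPM at 24 h. MTRNR2L3, a nuclear copy of mitochondrial rRNA sequence that can share reads with it, had 0.525, 0.442 and 0.338 CPM at 48 h, against 47.7 and 40.8 CPM at 24 h. The decoy receptor gene TNFRSF6B had 0.896, 0 and 1.77 CPM at 48 h, against 51.9 and 44.6 CPM at 24 h. The ganglioside synthase gene ST8SIA1 had 1.298, 1.35 and 1.604 CPM at 48 h, against 82.3 and 35.6 CPM at 24 h, with 98.8% of its counts at 24 h in a transcript with a run of 24 A or T. Its log2 fold change was -5.37, against -2.23 with transcripts holding a run of 20 or more left out. Of the 15 largest falls, SLC2A3, DDIT4 and HIST1H2BK are members of the lists above.

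The libraries of 96 h show how the same genes stood later in wild type. A test of 96 h against 24 h was not run, and time and library set cannot be told apart here either. Between 48 and 96 h 9140 genes passed (46.2%), 5036 higher and 4104 lower at 96 h, and this comparison shares the 48 h libraries with the one above, so the values are given side by side. INSIG1 averaged 365 CPM at 24 h, 11.8 at 48 h and 31.4 at 96 h. MSMO1 averaged 247 CPM at 24 h, 28.99 at 48 h and 40.7 at 96 h. Of the sterol list, 16 of 25 members were higher and 5 lower at 96 h than at 48 h (median 0.39), and their mean stayed below that of 24 h. VEGFA averaged 179 CPM at 24 h, 38.9 at 48 h and 56.2 at 96 h. Among hypoxia targets 12 were higher and 2 lower at 96 h. Growth genes were lower again at 96 h. NOP56 averaged 352 CPM at 24 h, 647 at 48 h and 341 at 96 h. CDK1 averaged 80.9 CPM at 24 h, 171 at 48 h and 85.3 at 96 h. At 96 h 24 of 26 ribosome biogenesis genes, 41 of 41 replication genes, 39 of 42 mitosis genes, 14 of 17 heat shock genes and 32 of 36 proteasome genes were lower than at 48 h, against 20.8% of all genes. CCNG2 averaged 34.8 CPM at 24 h, 4.96 at 48 h and 19.9 at 96 h. DBP averaged 72.8 CPM at 24 h, 16.4 at 48 h and 87.5 at 96 h. Of the lists, 16 of 22 genes of cell cycle exit and 13 of 16 clock genes were higher at 96 h than at 48 h, against 25.5% of all genes. Of the 13 mitochondrially encoded mRNAs, 10 were higher again at 96 h. CYP24A1 averaged 10.7 CPM at 24 h, 57.99 at 48 h and 199 at 96 h. MT1E averaged 481 CPM at 24 h, 71.01 at 48 h and 34.6 at 96 h. KRT6A averaged 0.847 CPM at 24 h, 16.5 at 48 h and 0.432 at 96 h.

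**Figure D4:**
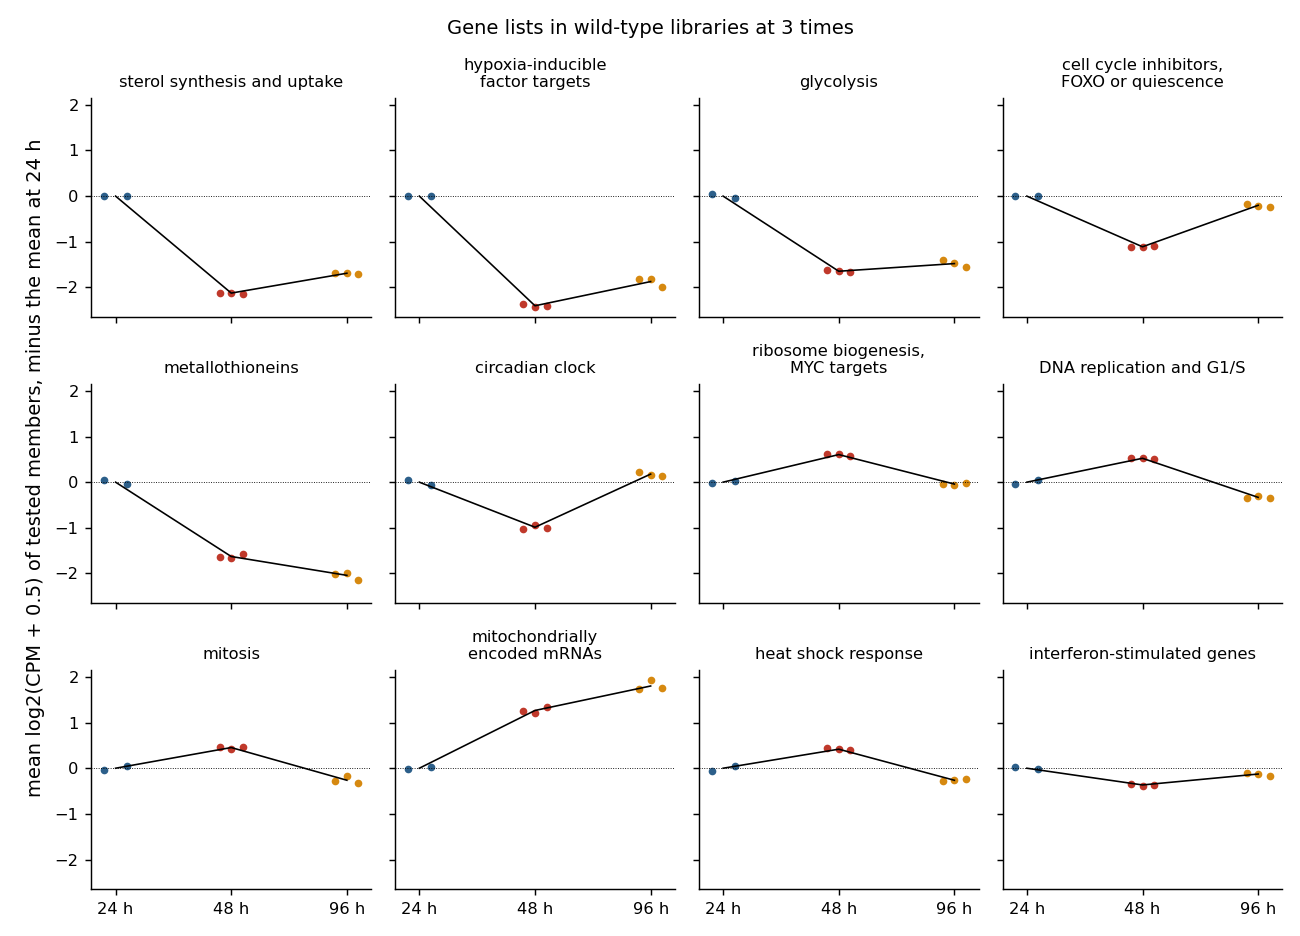
Mean log2(CPM + 0.5) of the tested members of 12 gene lists in each wild-type library at 24, 48 and 96 h, minus the mean of the 24 h libraries, with a line through the group means. Sterol, hypoxia and glycolysis genes stay below 24 h at 96 h, growth lists peak at 48 h, and mitochondrially encoded mRNAs are highest at 96 h.

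The knockdown arm gives the same span of time in 5 libraries that share none with the wild-type comparison. Transcripts with a run of at least 31 A or T took 0.555% and 0.572% of counts at 24 h there. At 48 h they took 5.33%, 6.42% and 4.11%. The sets of the 2 times thus differ as in wild type, and likeness of the arms cannot tell time from library set. NORAD averaged 217.6 CPM at 24 h and 22.2 at 48 h in this arm, so the knockdown itself changed over the span. There 9165 genes passed (46.4%), with 4781 higher (24.2%) and 4384 lower (22.2%) at 48 h. Of genes called higher in both arms there were 3304, which is 69.1% of the knockdown rises and 79.0% of the wild-type rises. Of genes called lower in both there were 3369, 76.8% of the knockdown falls and 74.6% of the wild-type falls, and 42 genes were called in opposite directions. Median log2 fold changes of the lists were -1.67 in knockdown and -2.14 in wild type for sterol genes, -2.02 and -2.15 for hypoxia targets, -1.32 and -1.46 for glycolysis, 0.56 and 0.69 for ribosome biogenesis, 0.60 and 0.57 for replication, 0.73 and 0.46 for mitosis, and 1.09 and 1.03 for mitochondrially encoded mRNAs. Interferon-stimulated genes had -0.98 and -0.31, with 31 of 39 falling in knockdown and 17 of 39 in wild type, and for 16 of the 39 the difference of the changes itself passed. Other lists also stood apart in their medians. Replication-dependent histone genes had 0.12 in knockdown and -1.74 in wild type, with 4 and 16 of 32 falling. For them the difference passed in 0 cases with edgeR (9 at an unadjusted p under 0.05) and in 4 with DESeq2. Immediate early genes had -0.00276 and -0.65, with 7 and 13 of 21 falling, and the difference passed for 4. Keratin genes had 0.33 and 0.78, with 4 and 10 of 18 rising, and it passed for 5. For the sterol genes it passed for 6 of 25.

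The change from 24 to 48 h differed between knockdown and wild type in 329 genes (1.66%; edgeR interaction term), with the difference above 0 in 194 (0.981%) and below 0 in 135 (0.683%). That count was 1546 without knockdown replicate 3 of 48 h. It was 109 and 161 without wild-type replicate 1 or 2 of 24 h, 167 and 134 without knockdown replicate 1 or 2 of 24 h, and 172 and 196 without wild-type replicate 1 or 2 of 48 h. The target NORAD led, with 22.2, 18.5 and 25.7 CPM in the knockdown libraries of 48 h, against 239.8 and 195 in those of 24 h (difference of log2 fold changes -3.01, SE 0.161, edgeR adjusted p = 3.58e-10). EPHB2 had 6.62, 5.06 and 7.02 CPM in the knockdown libraries of 48 h, against 2.85 and 2.66 in those of 24 h, a rise where wild type fell to 20.03, 21.3 and 21.95 CPM at 48 h (difference of log2 fold changes 2.05, SE 0.182, edgeR adjusted p = 1.52e-06). CYP24A1 rose less in knockdown, with 10.8, 9.68 and 12.8 CPM in the knockdown libraries of 48 h, against 6.29 and 5.35 in those of 24 h (difference of log2 fold changes -1.50, SE 0.154, edgeR adjusted p = 1.15e-05). ABCC2 also rose less there, with 44.1, 36.2 and 40.6 CPM in the knockdown libraries of 48 h, against 26.9 and 31.8 in those of 24 h (difference of log2 fold changes -1.21, SE 0.133, edgeR adjusted p = 2.23e-05). The interferon-stimulated IFI6 fell further in knockdown, with 28.2, 35.1 and 39.6 CPM in the knockdown libraries of 48 h, against 306 and 274 in those of 24 h (difference of log2 fold changes -1.36, SE 0.157, edgeR adjusted p = 3.58e-05). In wild type IFI6 had 14.3, 14.03 and 14.8 CPM at 48 h, against 51.2 and 43.6 CPM at 24 h. CCNG2 fell less, with 14.7, 12.9 and 14.2 CPM in the knockdown libraries of 48 h, against 41.1 and 28.8 in those of 24 h (difference of log2 fold changes 1.49, SE 0.203, edgeR adjusted p = 0.000477).

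**Figure D5:**
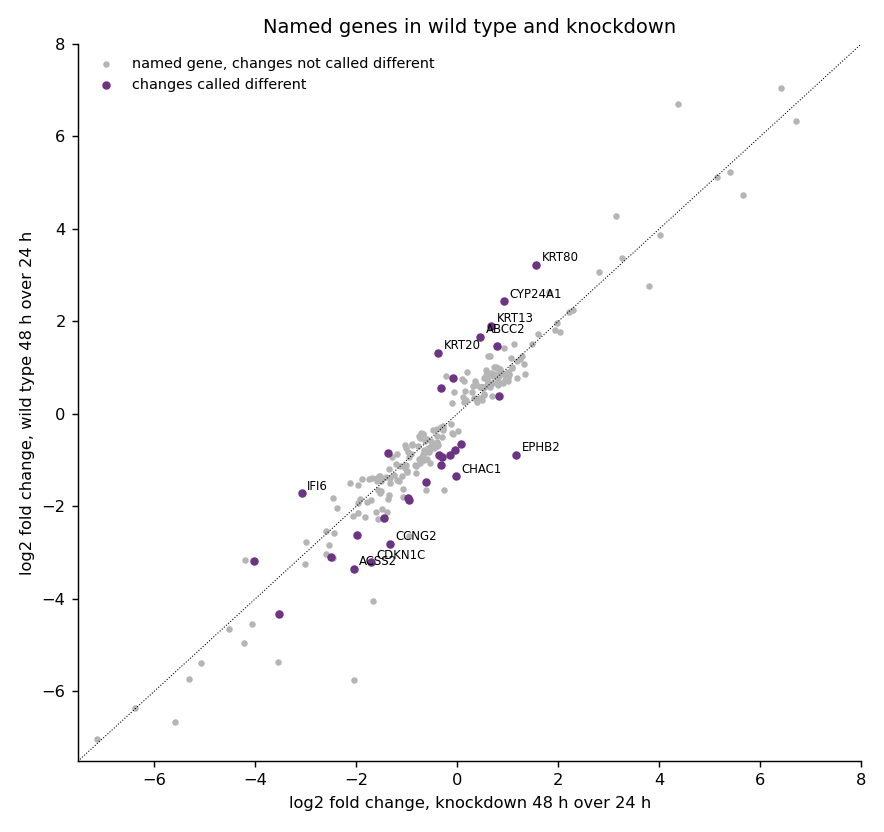
Log2 fold change of 48 h over 24 h in knockdown (horizontal axis) and wild type (vertical axis) for the named genes whose values lie within the axes, NORAD left out. Purple points are genes whose change differed between the arms (edgeR interaction), labelled where the difference is at least 1 on the log2 scale, and most grey points lie near the dotted line of equal change.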

How the data were processed

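The deposited table holds estimated counts per transcript for 16 libraries, made by the authors with kallisto per the submitters' processing notes, which also name hg19 and DESeq2 and give no versions. Of 166096 transcripts, 156583 matched GENCODE 29 (GRCh38, the source of all gene coordinates here) and were summed to 31481 genes after 159 transcripts with a run of 31 or more A or T were left out, and 9513 did not match and were not used. 0 columns were left unmapped. The 18 values of 1e+06 or more end in 0, so the table appears rounded there. Sums were rounded to whole numbers, genes were filtered with filterByExpr, and edgeR 4.0.16 (R 4.3.3, limma 3.58.1; TMM, robust quasi-likelihood test, Benjamini-Hochberg threshold 0.05) was fitted over all 16 libraries with a mean for each of 6 groups (10 residual degrees of freedom), which shares one estimate of spread. Reads of near-identical genes are divided by kallisto with a model. The code was tested on simulated data. SE is the log2 fold change over the root of F.

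The libraries held 28391784 to 51853876 estimated counts. The comparison, the gene lists (46) and the rule for naming genes were chosen with earlier results of these data known. Named genes are NORAD, the 15 largest rises and falls among called genes with a mean of at least 5 CPM whose groups do not overlap, up to 4 members of each list by p, all called members of lists of up to 16, and the largest noncoding changes; others are said to be chosen after their values were seen. Some genes the rule names are not reported here. Alternatives were DESeq2 1.42.0, other scalings and filters, glmTreat, fewer libraries, the replicate number as a block and leaving out each library. Leaving out mitochondrially encoded genes, or transcripts with a run of 20 or more A or T, was added after seeing the data.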

Additional observations from a re-analysis of the deposited data

Results flagged for a closer look

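In 31 of 264 named genes the change from 24 to 48 h differed between knockdown and wild type by the interaction term of the edgeR fit (adjusted p under 0.05). Over all genes tested the share was 1.66%. Most named genes were chosen by their change in wild type, which also enters the difference. That choice favours genes with a smaller change in knockdown, so these shares cannot be compared. Differences below are the log2 fold change in knockdown minus that in wild type, and a negative one means a lower value of the change in knockdown. It was lower in 12: NORAD (-3.01), CYP24A1 (-1.50), ABCC2 (-1.21), IFI6 (-1.36), KRT20 (-1.69), KRT13 (-1.23), KRT80 (-1.66), DKK1 (-0.68), NLRC5 (-0.85), ERAP1 (-0.89), SCD (-0.82) and KRT19 (-0.52). It was higher in 19: EPHB2 (2.05), CCNG2 (1.49), CDKN1C (1.50), ACSS2 (1.30), CHAC1 (1.33), MVD (0.65), IRF7 (0.85), ISG20 (0.80), IER3 (0.74), PPP1R15A (0.77), ITGAX (0.91), GADD45B (0.85), COL1A1 (0.75), ALDOC (0.80), HERPUD1 (0.74), MSMO1 (0.60), TRIB3 (0.53), MANF (0.42) and ATF3 (0.63). NORAD is the target of the knockdown. The number of genes called by this term depends on single libraries, from 109 without wild-type replicate 1 of 24 h to 1546 without knockdown replicate 3 of 48 h.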

How the results depend on the processing

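Without each library in turn, genes called in wild type numbered 6374 to 8022 (3101 to 3966 rising, 3273 to 4170 falling; 610 to 704 and 1512 to 1925 by 2-fold or more), and genes called in knockdown 6497 to 10219 (3316 to 5195 rising, 3181 to 5024 falling). Genes whose change differed between knockdown and wild type numbered 109 to 1546. That count was also 648 with DESeq2, 524 for genes with a mean of at least 1 CPM and 203 with the replicate block. Rises in wild type numbered 2559 when tested against a 1.2-fold change with glmTreat, and with a mean of at least 1 CPM there were 437 rises and 1259 falls of 2-fold or more. For these counts the cause was not tested, beyond fewer genes or libraries entering. The share of calls that rose ranged from 43.13% to 52.54% across settings, and no scaling moved the median of all genes by 0.1 on the log2 scale. The log2 fold change of DPP6 reversed to -0.40 without transcripts holding a run of 20 or more A or T, and that of AXL to 0.28 with all matched transcripts kept. Of 262 named genes called in wild type, 233 could be tested in each of 19 other settings, and 196 of these kept their call and direction in all of them. Whether replicate numbers pair the libraries was not settled. Deviations of same-numbered wild-type libraries from their group means correlated at 0.0156 and -0.0315. With 2 libraries at 24 h their deviations mirror each other, so this check cannot tell whether the libraries are paired. With the replicate block 8063 genes were called in wild type and 8584 in knockdown.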

Other observations

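Antisense, lincRNA, snoRNA and snRNA genes fell more often than they rose. Of 2165 antisense genes tested, 316 fell (14.6%) and 161 rose (7.44%), and of 1951 lincRNA genes, 305 fell (15.6%) and 162 rose (8.30%). Of 15340 protein-coding genes, 3830 fell (25.0%) and 3833 rose (25.0%). Antisense and lincRNA genes were thus called less often than protein-coding genes in both directions, rises most of all. Of 12 snoRNA genes, 9 fell and 1 rose, and of 4 snRNA genes, 3 fell. The snoRNA and snRNA classes lack a poly(A) tail as a rule, and how much of them the selection let through was not tested. Retained-intron transcripts, given above, took a smaller share at 48 h.

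The following genes outside the naming rule were looked up after their values were seen. TSC22D3 had 4.23, 4.17 and 4.19 CPM at 48 h, against 117 and 92.5 CPM at 24 h (log2 fold change -4.64). KLF15 had 1.33, 1.27 and 1.44 CPM at 48 h, against 51.4 and 28.9 CPM at 24 h (-4.90). KLF9 and the phosphatase gene DUSP1 stood at -1.82 and -1.45. The kinase gene SGK1 went the other way, with 6.52, 6.43 and 6.84 CPM at 48 h, against 3.34 and 3.02 CPM at 24 h (1.05), as did FKBP5 (0.36). MIR210HG, the host of a miRNA that hypoxia induces, had 1.36, 2.68 and 2.56 CPM at 48 h, against 26.5 and 27.01 CPM at 24 h (-3.59). HINT3 had 728, 823 and 901 CPM at 48 h, against 8664 and 3269 CPM at 24 h (-2.87), and its 24 h libraries differ from each other by more than 2-fold.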
